A study of Homo sapiens with 6 samples.

Results

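TXNIP, ARRDC4, ARRDC3, MLXIPL, MLX and MLXIP were measured by bulk RNA-seq in the human β cell line EndoC-βH1 after treatment with 1 µM AZD7762 or with the vehicle DMSO. These 6 genes were chosen by name as genes of the transcriptional response of cells to carbohydrate, out of 60671 gene identifiers in the count files. All 6 passed the filter on low counts. They, and the gene lists set beside them below, were chosen with earlier results of these data known. Shares of these genes set beside the shares of all genes are therefore descriptions only. AZD7762 inhibits CHEK1 and CHEK2, and kinase profiling by the authors at 1 µM found that it also inhibits many other kinases. Each group held 3 samples of wild-type cells, and the compound or DMSO was present during starvation for 1 h at 0.5 mM glucose and during the next 1 h of stimulation. Glucose was either kept at 0.5 mM or raised to 20 mM for the stimulation, and the labels do not say which of these applied to a given library, so the glucose concentration behind the values below is not known. DMSO replicates 1, 2 and 3 held 29402440, 26921225 and 20486391 counts, and AZD7762 replicates 1, 2 and 3 held 25494187, 21441444 and 21503144. The methods describe in vitro replicates in general as independent, whereas the labels of these libraries do not name separate cultures. The p-values measure the spread between these samples, part of which may be technical.

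TXNIP encodes thioredoxin-interacting protein, an α-arrestin that binds thioredoxin and promotes removal of glucose transporters from the cell surface. ARRDC4 and ARRDC3 encode further α-arrestins, which link membrane proteins to ubiquitin ligases of the NEDD4 family. MLXIPL encodes ChREBP and MLXIP encodes MondoA, transcription factors that enter the nucleus and bind DNA when glucose phosphates accumulate. MLX is the partner with which both form dimers. TXNIP and ARRDC4 are classic targets of these dimers, and TXNIP is known in β cells as a transcript that rises strongly with glucose and favours cell death.

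The DNA upstream of the start sites is shown for the members that hold the E-box CACGTG (ARRDC4 and MLX) or a relaxed pair of E-box-like blocks (TXNIP), because the dimers of MLX bind pairs of E-box-like blocks known as carbohydrate response elements. The sequences are from RefSeq on build GRCh38.p14, whose coordinates differ from those of the count files, and each line is the strand of the gene, 5′ to 3′. Capitals mark CACGTG or a relaxed form of the response element, in which the block CACGNG is followed by 5 bases of any kind and then by the block CNCGNG. The TXNIP stretch covers chr1:145996630-145996729 on the minus strand, from base -150 to base -51 relative to the start site. In GRCh37, the build of the counts, TXNIP lies on the plus strand.
TXNIP: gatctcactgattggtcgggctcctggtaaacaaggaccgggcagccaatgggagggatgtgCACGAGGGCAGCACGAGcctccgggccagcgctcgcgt
The ARRDC4 stretch covers chr15:97960453-97960552 on the plus strand, from base -250 to base -151.
ARRDC4: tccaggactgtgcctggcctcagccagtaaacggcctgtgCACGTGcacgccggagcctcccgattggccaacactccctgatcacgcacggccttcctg
The MLX stretch covers chr17:42567000-42567099 on the plus strand, from base -100 to base -1.
MLX: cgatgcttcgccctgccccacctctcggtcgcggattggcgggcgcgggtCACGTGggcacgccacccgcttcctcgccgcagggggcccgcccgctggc

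All 6 members were found in the RefSeq table, with 8 windows of 300 bases between them, and both strands were searched for each motif. The relaxed response element matched in 1 of the 8 windows, that of TXNIP, from base -88 to base -72, as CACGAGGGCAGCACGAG. Among all 35116 windows of this length in the table, 0.501% held a match. CACGTG was present upstream of ARRDC4, from base -210 to base -205, and of MLX, from base -50 to base -45, against 7.26% of all windows. The CCAAT box, which matched in 34.6% of all windows, was present upstream of TXNIP 2 times and upstream of ARRDC4 3 times, and at least 1 time for ARRDC3, MLX and MLXIP. The forkhead motif GTAAACA lay in the TXNIP window from base -124 to base -118 and, on the opposite strand, in the second ARRDC3 window from base -29 to base -23, against 3.42% of all windows. The full cyclic AMP response element TGACGTCA lay upstream of MLXIP from base -57 to base -50, against 1.85%, and TATAAA was in none of the 8 windows. None of these motifs overlapped another in the windows of the members. These matches describe the letters of the windows, and binding was not measured.

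**Figure D1:**
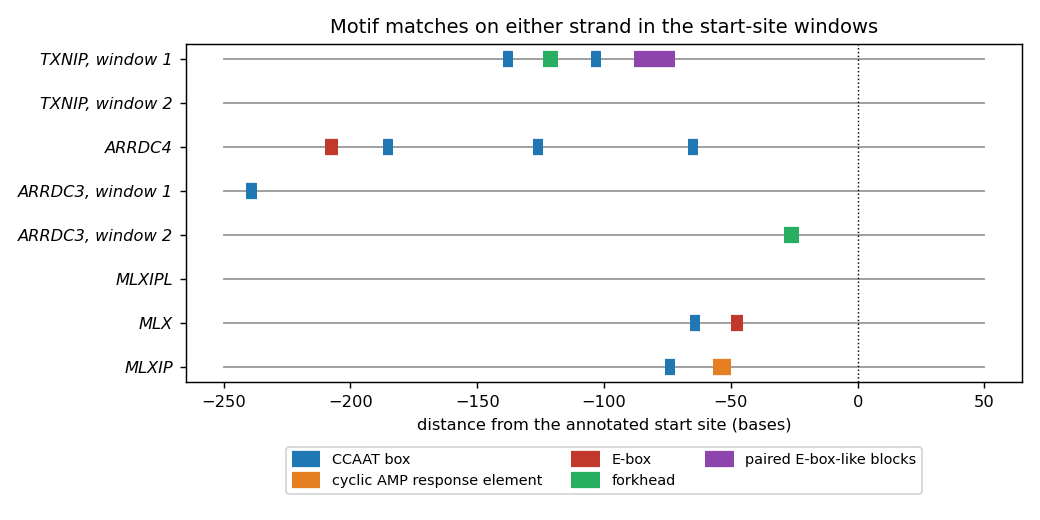
Motif matches in the 8 start-site windows of the 6 members, with the distance from the annotated start site in bases on the x axis and 1 line per window. The paired E-box-like blocks lie in the first TXNIP window between bases -88 and -72, and the E-box lies upstream of ARRDC4 and of MLX.

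The members differed widely in level. As normalized CPM (the count of a gene relative to the scaled total of its library) per kilobase of annotated exon, ARRDC3 stood at 92.1 ± 14.1 with DMSO (SD, n = 3), and MLX at 11.6 ± 0.648. MLXIPL at 6.25 ± 0.532, ARRDC4 at 6.15 ± 0.161 and MLXIP at 6.07 ± 0.426 overlapped in their samples and could not be ordered. TXNIP was the lowest of the 6 at 1.58 ± 0.269. Among all genes tested, the level per kilobase over the 6 samples lay at percentile 98.5 for ARRDC3 and at percentile 38.1 for TXNIP. With AZD7762 the order was ARRDC3 at 117 ± 6.27, MLX at 11.0 ± 0.661, MLXIPL at 6.39 ± 0.944 and MLXIP at 6.26 ± 0.207, which overlapped, then ARRDC4 at 4.99 ± 0.264 and TXNIP at 2.68 ± 0.105. ARRDC4 thus lay below every MLXIP and MLXIPL sample with AZD7762 but not with DMSO. Exon lengths come from another annotation release than that of the counts, which bears on comparisons between genes but not between samples.

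The identity of the cells was checked against markers. All 14 β cell markers listed were detected, with a summed level between 8161 and 9382 normalized CPM with DMSO and between 8923 and 9396 with AZD7762. The most abundant was CHGA, and INS stood at 1258 ± 351 and 1409 ± 250 CPM. Of 9 markers of other islet, pancreas, stromal and blood cells that could be matched, PRSS1 was at 0 in every sample, PTPRC had at most 8 counts, and 5 were tested. SST, the somatostatin gene and the most abundant of these, was at 214 ± 12.4 CPM with DMSO and 253 ± 11.5 with AZD7762. The summed level of the 9 was 258 to 286 CPM with DMSO and 309 to 335 with AZD7762, so it moved with the treatment, and its part in the results below was not tested. The share of counts on mitochondrial genes was 1.57%, 2.13% and 2.12% in DMSO replicates 1, 2 and 3 and 2.26%, 2.28% and 2.63% in AZD7762 replicates 1, 2 and 3. It too was higher in every AZD7762 sample, and its part was not tested.

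TXNIP (ENSG00000265972, chromosome 1 of GRCh37, 145438490 to 145442635, plus strand) rose with AZD7762. Its level was 5.95, 6.46 and 4.59 normalized CPM in DMSO replicates 1, 2 and 3, and 9.85, 9.82 and 9.18 CPM in AZD7762 replicates 1, 2 and 3. The groups did not overlap, the AZD7762 samples lay close together, and DMSO replicate 3 was the lowest sample. The fitted change was 1.68-fold, a log2 fold change of 0.75 (standard error 0.127, 95% interval 0.48 to 1.03, adjusted p = 0.0127 over 17649 genes in edgeR's quasi-likelihood test). TXNIP ranked at position 87 by p among these genes. These values rest on few reads, from 96 counts in DMSO replicate 3 to 248 in AZD7762 replicate 1, and the exact Poisson 95% interval of the lowest sample was 3.72 to 5.61 CPM and that of the lowest AZD7762 sample 7.94 to 10.6 CPM, which cover counting error only. The direction held with each sample left out, with log2 fold changes from 0.64 to 0.85, but the adjusted p (edgeR) rose to 0.0584 without DMSO replicate 1, 0.133 without AZD7762 replicate 1 and 0.0618 without AZD7762 replicate 2. In bulk RNA, a change in the share of cells that carry a transcript and a change in RNA per cell cannot be told apart.

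Of the 6 members, TXNIP was the 1 that passed the threshold on the adjusted p, against 0.708% of all genes tested (125 of 17649) and 0.357% called higher with AZD7762. For 3 of the 6 the groups did not overlap, TXNIP, ARRDC3 and ARRDC4, against 15.0% of all genes (6.79% with AZD7762 higher and 8.25% with AZD7762 lower), and the same 3 had an unadjusted p under 0.05, against 9.68% of all genes. The median log2 fold change of the 6 was 0.042, beside 0.00757 over all genes tested, and the median of its size was 0.19 beside 0.091. The 3 α-arrestin genes carried the difference in size, and the 3 transcription factor genes did not move beyond their spread. With the replicate number as a block in the fit, 3 members were called, against 2.14% of all genes (378 of 17649).

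**Figure D2:**
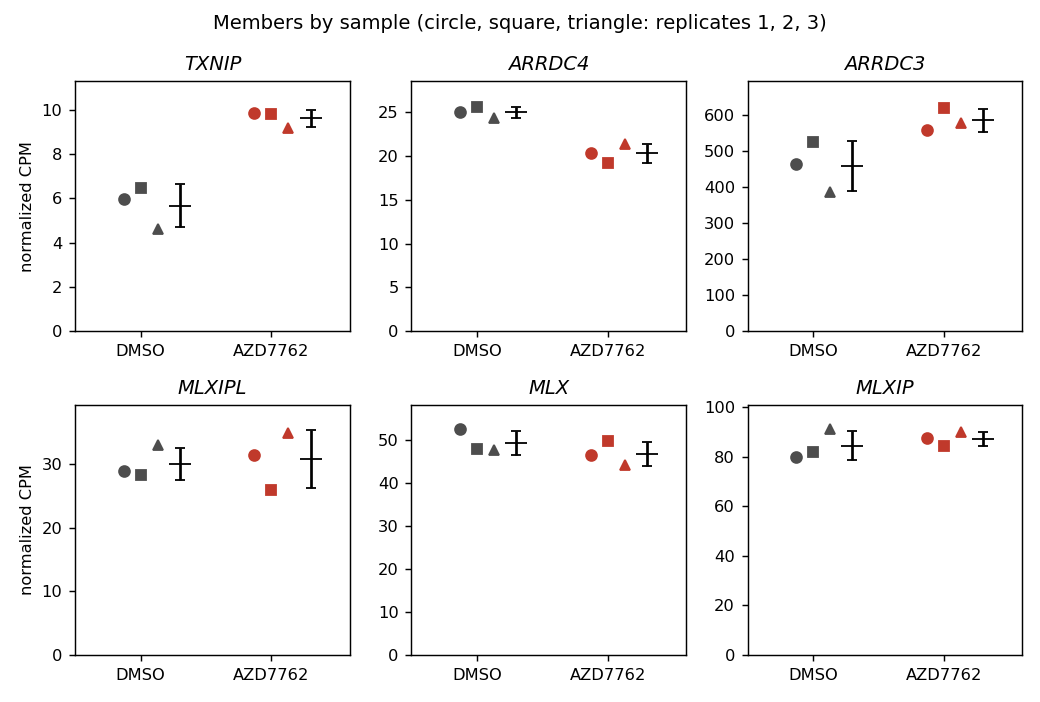
Normalized CPM of the 6 members in each sample, with 1 panel per gene and an axis from 0, symbols for replicates 1 to 3 and the mean ± SD (n = 3) beside each group. TXNIP and ARRDC3 lie higher in every AZD7762 sample and ARRDC4 lower, whereas the groups overlap for MLXIPL, MLX and MLXIP.

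ARRDC4 (ENSG00000140450, chromosome 15, 98503933 to 98517063, plus strand) is the paralogue that shares with TXNIP the control by ChREBP and MondoA, and its values lay in the opposite direction. It was at 25.1, 25.6 and 24.3 CPM in DMSO replicates 1, 2 and 3 and at 20.4, 19.2 and 21.3 CPM in AZD7762 replicates 1, 2 and 3. Every AZD7762 sample lay below every DMSO sample, and the spread within each group was small. The log2 fold change was -0.30 (standard error 0.0752, 95% interval -0.46 to -0.14), which missed the threshold over all genes (adjusted p = 0.134, edgeR) and passed it narrowly with the replicate block (adjusted p = 0.0485, edgeR).

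ARRDC3 (ENSG00000113369, chromosome 5, 90664448 to 90679134, minus strand), whose product takes part in the sorting of adrenergic receptors, was the most abundant member. Its samples stood at 466, 525 and 386 CPM with DMSO and at 559, 620 and 578 CPM with AZD7762, in the order of the replicate numbers. The AZD7762 samples were all higher, although the gap between DMSO replicate 2 and AZD7762 replicate 1 was smaller than the spread within the DMSO group. The log2 fold change was 0.35 (standard error 0.0950, 95% interval 0.14 to 0.56, adjusted p = 0.179, edgeR), and with the replicate block it was 0.36 (adjusted p = 0.00332, edgeR). The gene was also called with DESeq2's Wald test (adjusted p = 0.0250) and with edgeR's exact test (adjusted p = 0.0371). Without DMSO replicate 3 the log2 fold change was 0.24. Of its exon length, 2.91% overlaps ARRDC3-AS1 on the opposite strand, and no source used here says whether counting used the strand.

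The α-arrestin transcripts were next compared with each other within each sample, since a ratio of counts of the same library does not depend on scaling. The log2 ratio of TXNIP to ARRDC4 was -2.07, -1.98 and -2.40 in DMSO replicates 1, 2 and 3, and -1.05, -0.96 and -1.22 in AZD7762 replicates 1, 2 and 3. It was thus higher by 1.08 on average with AZD7762, several times the spread within either group (SD 0.220 and 0.127). The ratio of TXNIP to ARRDC3 was higher by 0.41 (-6.34 ± 0.0505 with DMSO and -5.93 ± 0.0878 with AZD7762, SD, n = 3). The ratio of ARRDC4 to ARRDC3 was lower, with a difference of -0.66 (-4.19 ± 0.187 and -4.85 ± 0.142). For each of the 3 ratios the groups did not overlap, and the two-sided exact permutation p was 0.1, and 0.1 after adjustment over the 3 ratios, which is the smallest value that 3 samples against 3 allow. The ratios between the 3 paralogues thus lay apart between the groups in these samples. For the ratios with ARRDC4 this follows from genes whose groups already lay apart in opposite directions, so it is no further result. This design cannot take such a test below 0.05, so the test cannot decide whether the 3 genes changed by unequal amounts.

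**Figure D3:**
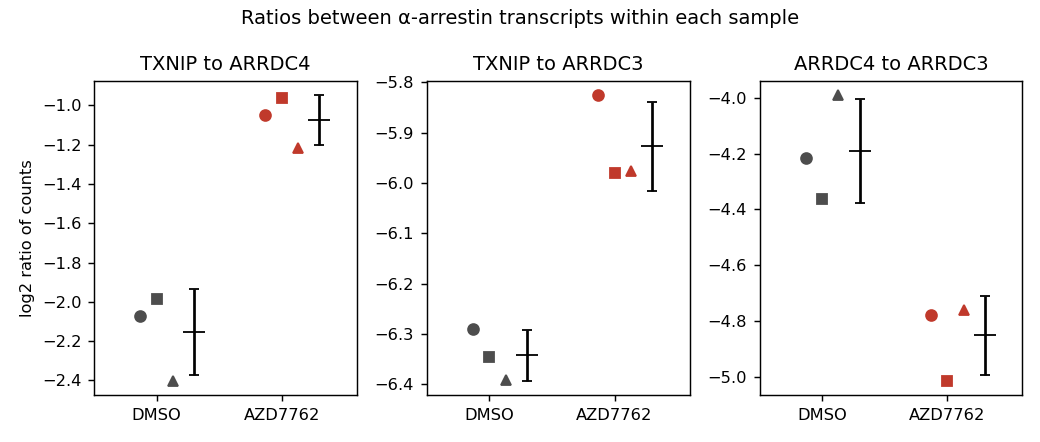
Log2 ratio of the counts of each pair of α-arrestin genes within each sample, 1 panel per pair with its own axis that does not start at 0, symbols for replicates 1 to 3 and mean ± SD (n = 3). In each panel the DMSO and AZD7762 samples are separate, with the widest gap for TXNIP to ARRDC4, where the means are -2.15 and -1.08.

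The transcription factor genes gave values close to no change. MLXIPL (ENSG00000009950, chromosome 7, 73007524 to 73038873, minus strand) stood at 28.9, 28.4 and 33.0 CPM with DMSO and at 31.4, 26.0 and 35.0 CPM with AZD7762. The groups overlapped fully, and replicate 3 was the highest sample of each. The 95% interval of its log2 fold change, -0.19 to 0.26, includes 0. MLXIP (ENSG00000175727, chromosome 12, 122516628 to 122631894, plus strand) stood at 79.99, 81.95 and 91.1 CPM and at 87.4, 84.1 and 89.8 CPM, with an interval from -0.094 to 0.19. MLX (ENSG00000108788, chromosome 17, 40719090 to 40725257, plus strand) stood at 52.5, 47.9 and 47.7 CPM and at 46.5, 49.9 and 44.3 CPM, with an interval from -0.23 to 0.076. The adjusted p of MLXIPL, MLXIP and MLX was 0.936, 0.866 and 0.784 in edgeR's test. These tests do not show equal levels, and changes in either direction within the intervals are not excluded. For MLX, 18.2% of the exon length overlaps PSMC3IP on the opposite strand, so part of its counts may be uncertain.

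**Figure D4:**
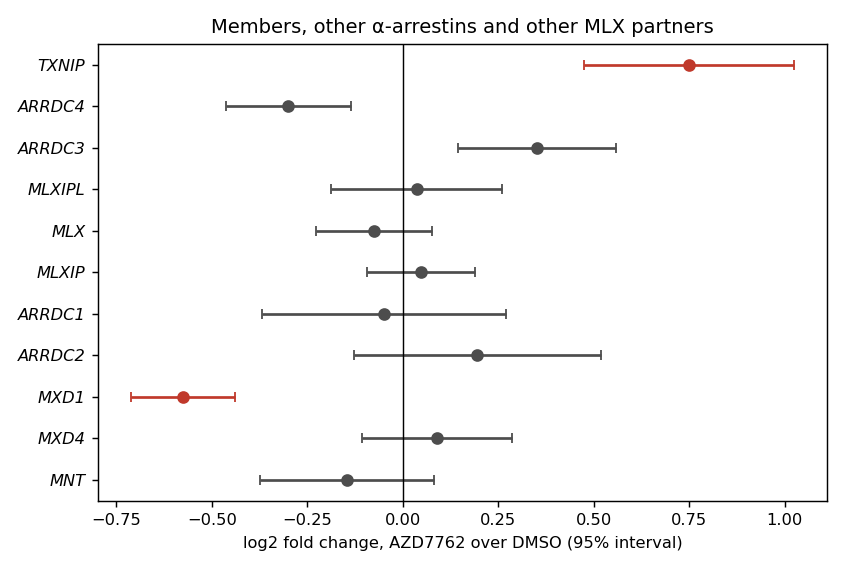
Log2 fold change of AZD7762 over DMSO with its 95% interval from edgeR's quasi-likelihood fit, for the 6 members, the other tested α-arrestins and the other partners of MLX. Red marks an adjusted p under 0.05, which holds for TXNIP at 0.75 and MXD1 at -0.58.

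Of the other 3 α-arrestins, 2 were tested, and 0 were called or had an unadjusted p under 0.05 in edgeR's test, beside 0.708% and 9.68% of all genes. ARRDC1, whose product takes part in the release of vesicles from the plasma membrane, stood at 28.6 ± 7.16 CPM in DMSO and 27.5 ± 3.56 CPM in AZD7762 samples (SD, n = 3), and the fit gave a log2 difference of -0.049 (adjusted p = 0.942, edgeR). ARRDC2 stood at 2.84, 3.78 and 3.64 CPM with DMSO and at 3.69, 3.99 and 4.03 CPM with AZD7762. These samples overlapped, and the log2 fold change of ARRDC2 was 0.20 (95% interval -0.13 to 0.52). ARRDC5 had 0 counts in every sample, where 3 counts correspond to 0.102 to 0.146 CPM.

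MLX also forms dimers with MXD1, MXD4 and MNT, repressors of the MYC network that compete for E-boxes. MXD1 (ENSG00000059728, chromosome 2, 70124820 to 70170077, plus strand) fell with AZD7762. It was at 101, 100 and 103 CPM in DMSO replicates 1, 2 and 3 and at 64.1, 67.7 and 72.8 CPM in AZD7762 replicates 1, 2 and 3. The groups were far apart relative to their spread, with a fitted log2 difference of -0.58 (standard error 0.0625, adjusted p = 0.000332, edgeR). MXD1 remained called in each of 17 alternative fits. Of its exon length, 3.73% overlaps SNRNP27 on the same strand. MXD4 differed by 0.089 on the log2 scale (adjusted p = 0.805, edgeR) and MNT of -0.15 (adjusted p = 0.704, edgeR). Thus 1 of 3 fell and none rose, against 0.351% of all genes called lower. Since the list was chosen with earlier results of these data known, this share is a description only.

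Genes that ChREBP or MondoA are known to control were examined as a list of 25, besides TXNIP and ARRDC4. Of these, 17 were tested, 1 was called higher, 1 was called lower and 15 did not pass. Over all genes, 0.357% were called higher and 0.351% lower. This list too was chosen with earlier results of these data known, so its shares are a description only. The median log2 fold change was 0.00864, close to the 0.00757 over all genes. RGS16, a regulator of G protein signalling that responds to glucose in islets, rose from 3.72, 4.0 and 3.73 CPM with DMSO to 6.55, 9.35 and 7.73 CPM with AZD7762 in replicates 1, 2 and 3. Its groups did not overlap, and the fitted difference was 1.04 on the log2 scale (standard error 0.143, adjusted p = 0.00267, edgeR). BHLHE40, a repressor of the circadian network, fell from 8.59, 5.80 and 8.42 CPM to 2.74, 3.42 and 2.90 CPM. The fitted difference was -1.33 on the log2 scale (standard error 0.171, adjusted p = 0.00141, edgeR), and 12.8% of its exon length overlaps BHLHE40-AS1 on the opposite strand. RGS16 and BHLHE40 remained called in each of 17 alternative fits.

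Of the 15 tested target genes that did not pass, several are described here. ACLY, which makes cytosolic acetyl-CoA, was at 992 ± 23.5 and 1015 ± 14.5 CPM, SCD at 1317 ± 76.6 and 1331 ± 51.2, and FASN, the fatty acid synthase, at 396 ± 111 and 435 ± 61.4 (DMSO and AZD7762, SD, n = 3). KLF10, another glucose-responsive factor, was at 151 ± 10.0 and 145 ± 3.58 CPM. The samples of ACLY, SCD, FASN and KLF10 overlapped between the groups. ELOVL6, a fatty acid elongase, was at 27.3 ± 1.8 and 24.96 ± 1.17 CPM and lower in every AZD7762 sample, with a log2 difference of -0.13 (adjusted p = 0.639, edgeR). KHK, which phosphorylates fructose, differed by 0.16 on the log2 scale (unadjusted p = 0.0389 and adjusted p = 0.480 in edgeR's test), and TKFC, a later enzyme of fructose breakdown, also by 0.16 (adjusted p = 0.580, edgeR). The samples of KHK and TKFC overlapped. Among 8 genes of the list that did not reach the filter was PKLR, the liver pyruvate kinase, with 4 to 9 counts per sample. HK2, the hexokinase that MondoA controls in other tissues, had 10, 3 and 5 counts in DMSO replicates 1, 2 and 3 and 0, 1 and 0 in AZD7762 replicates 1, 2 and 3. HK2 did not pass the filter of the reported fit, so no p-value is given for these low counts. It was not among the genes called when all genes were fitted without a filter.

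**Figure D5:**
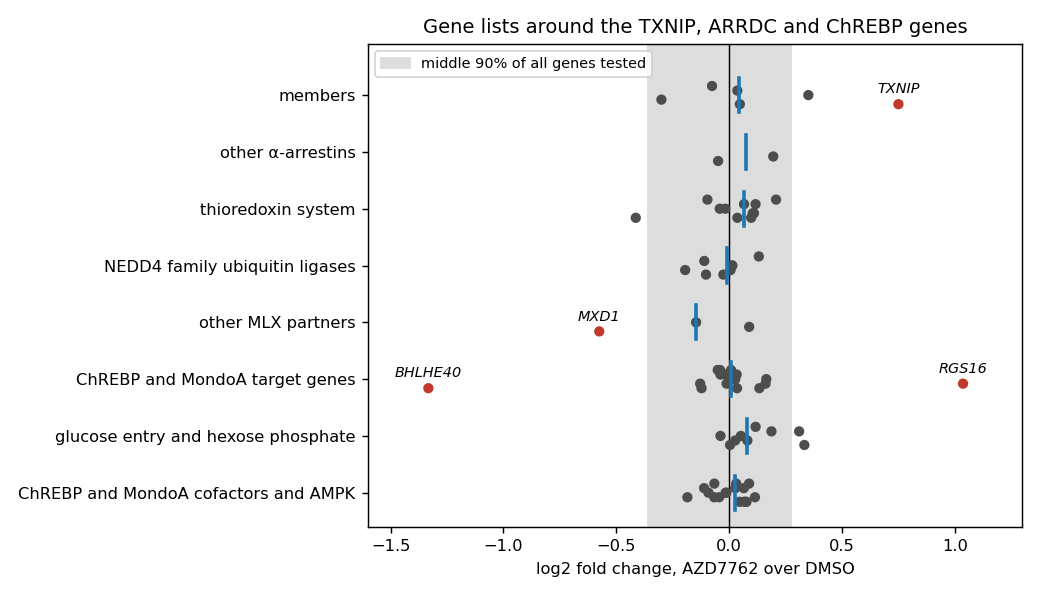
Log2 fold change of AZD7762 over DMSO for the tested genes of each list other than the cell type markers, 1 point per gene, with called genes in red and named, list medians as blue bars, and a grey band for the middle 90% of all genes tested, from -0.36 to 0.27. The called genes plotted are TXNIP, MXD1, RGS16 and BHLHE40, and most other genes lie inside the band.

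Glucose reaches these factors through transport and phosphorylation. Of 12 genes listed for these steps, 9 were tested and none was called, beside 0.708% of all genes. The transporter gene SLC2A1 stood at 37.5 ± 2.25 CPM in DMSO and 37.6 ± 0.852 CPM in AZD7762 samples (SD, n = 3), and SLC2A2 at 1.55 ± 0.292 and 1.57 ± 0.196. G6PC3, a glucose-6-phosphatase, had the smallest p, with 110 ± 3.48 and 125 ± 8.66 CPM and a log2 difference of 0.19 (adjusted p = 0.340, edgeR), but 23.9% of its exon length overlaps HDAC5. HKDC1 differed by 0.33 on the log2 scale (adjusted p = 0.573, edgeR), and GPI, the most abundant of the list by CPM, by 0.081 (adjusted p = 0.744, edgeR). The median of the list was 0.081, with 8 of 9 higher beside 9243 of 17649 over all genes, and G6PC3 was the 1 gene with an unadjusted p under 0.05, beside 9.68% of all genes. It was called where the replicate block was combined with the removal of GC content and length trends.

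In the thioredoxin system, to which TXNIP binds, 0 of 11 tested genes of 12 listed were called, beside 0.708% of all genes, with a median of 0.066 beside 0.00757, and 1 had an unadjusted p under 0.05, which is near the 9.68% of all genes. TXN, the thioredoxin that TXNIP holds, stood at 95.9 ± 7.24 CPM with DMSO and 103 ± 9.66 with AZD7762, and TXN2, its mitochondrial form, at 97.8 ± 3.92 and 106 ± 7.87. PRDX5, a peroxiredoxin, stood at 161 ± 7.27 CPM in DMSO and 186 ± 15.6 CPM in AZD7762 samples, and differed by 0.21 on the log2 scale (adjusted p = 0.324, edgeR). It was called with the replicate block (adjusted p = 0.0287, edgeR), but in none of the other alternatives, the block with GC content and length trends removed included. DDIT4, whose product can bind TXNIP, was at 4.88 ± 1.5 and 3.59 ± 0.970 CPM (log2 fold change -0.41, adjusted p = 0.602, edgeR). PRDX3, the most abundant of the list by CPM, differed by -0.017 on the log2 scale (adjusted p = 0.956, edgeR). NLRP3, the inflammasome sensor linked to TXNIP, had 1 count in DMSO replicate 1 and 0 in the other samples.

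The ubiquitin ligases of the NEDD4 family, which α-arrestins recruit, gave 0 calls among 8 tested of 9 listed, beside 0.708% of all genes. Their median log2 fold change was -0.00942, beside 0.00757 over all genes. The groups did not overlap for 3 of the 8, WWP2 higher and SMURF1 and SMURF2 lower, beside 15.0% of all genes. At an unadjusted p under 0.05 there were 2, beside 9.68% of all genes, WWP2 with a log2 difference of 0.13 (adjusted p = 0.498, edgeR) and SMURF2 with -0.19 (adjusted p = 0.407, edgeR). ITCH, the ligase known to act on TXNIP protein and the most abundant of the family by CPM, stood at 167 ± 5.24 and 169 ± 9.44 CPM, a log2 difference of 0.015. A further list comprised cofactors and kinases that hold or modify ChREBP and MondoA. They were phosphoserine-binding YWHA adaptors, coactivators, the enzymes of the O-GlcNAc cycle and subunits of AMPK. Of 18 listed genes, 17 were tested. For 2 of the 17 the groups did not overlap, both lower with AZD7762, beside 8.25% of all genes. None of the 17 was called, beside 0.708% of all genes. OGT, which adds O-GlcNAc, had the smallest p and the 1 unadjusted p under 0.05 of these (beside 9.68% of all genes), with 101 ± 3.07 and 88.9 ± 2.98 CPM and a log2 difference of -0.18 (adjusted p = 0.279, edgeR). YWHAH differed by -0.11 on the log2 scale (adjusted p = 0.637, edgeR) and YWHAQ, the most abundant by CPM, by 0.032 (adjusted p = 0.922, edgeR). No gene of these lists of ligases and cofactors, nor of the thioredoxin system or glucose entry, was called with DESeq2's Wald test or with edgeR's exact or likelihood ratio tests.

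Of the 14 β cell markers tested, 1 was called, beside 0.708% of all genes, and 4 had an unadjusted p under 0.05, 3 higher and 1 lower, beside 9.68%. The groups did not overlap for 4 that were higher and 2 that were lower, beside 6.79% and 8.25% of all genes. MAFA, a transcription factor of the insulin promoter, rose, from 17.3 ± 3.41 to 40.4 ± 4.24 CPM (log2 fold change 1.24, adjusted p = 0.000133, edgeR). Of the 5 tested markers of other cells, 0 were called and 2, SST and CPA1, had an unadjusted p under 0.05, beside 0.708% and 9.68% of all genes. All 5 had a positive log2 fold change, with a median of 0.11. CPA1, a digestive enzyme of acinar cells, was at 21.8 ± 0.826 CPM in DMSO and 25.7 ± 1.56 CPM in AZD7762 samples, and higher in every AZD7762 sample (log2 fold change 0.24, adjusted p = 0.308, edgeR). NEUROD1, a transcription factor of endocrine cells, was called lower with the replicate block (log2 fold change -0.23, adjusted p = 0.0144, edgeR). SST had a log2 fold change of 0.24 and was not called (adjusted p = 0.160, edgeR). It was called with the replicate block (adjusted p = 0.00988, edgeR), with the block and GC content and length trends removed, and when all genes were fitted without a filter.

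The genes whose pattern was most like that of TXNIP were sought among the 10943 tested genes whose mean log2 CPM was 3 or more, by Pearson's r of log2(normalized CPM + 1) over the 6 samples. With 6 points that share the same libraries, and a difference between the groups in both genes, high coefficients are frequent, and they are given as a description. The 5 most alike were ENSG00000250360 (r = 0.995), FRAT2 (0.993), RNF10 (0.993), LASP1 (0.987) and NMT1 (0.984), of which NMT1 was not among the 5 when CPM were taken without TMM factors. Their log2 fold changes were between 0.078 and 0.18, smaller than that of TXNIP, and none of the 5 was called. For ARRDC4 they were FBXO9 (r = 0.996), LANCL2 (0.992), CASD1 (0.991), ZNF776 (0.990) and MAPKAPK5 (0.989). Of these, FBXO9 (log2 fold change -0.58, adjusted p = 0.00151, edgeR) and CASD1 (-0.34, adjusted p = 0.0217, edgeR) fell. Between members, r was 0.94 for TXNIP and ARRDC3 and -0.86 for TXNIP and ARRDC4, over the same 6 samples.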

How the data were processed

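RNA-seq counts of 6 samples were used, 3 with DMSO and 3 with AZD7762, grouped by their labels. The authors prepared polyadenylated RNA with an unstranded or a stranded kit, sequenced 51 bp read pairs, checked them with FastQC 0.10.1, trimmed them with cutadapt 1.18 (versions from the submitters' processing notes), aligned them to GRCh37 and counted reads per gene with HTSeq-count, and the aligner is not given in the sources used here. As deposited, the values are raw counts without scaling. Symbols, exon lengths and overlaps came from GENCODE mapped to GRCh37, another release than that of the files, which matched 58646 of 60671 identifiers.

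In R 4.3.3, 17649 genes passed filterByExpr of edgeR 4.0.16, TMM factors scaled the libraries, and AZD7762 was compared with DMSO by the quasi-likelihood test, two-sided, with Benjamini-Hochberg adjustment over all genes and a threshold of 0.05. Standard errors were taken from the log2 fold change and the root of its F statistic. The mean ± SD is over normalized CPM, counts divided by the scaled library total. Alternatives were other scaling, filters and tests (DESeq2 1.42.0, edgeR's exact and likelihood ratio tests), the removal of GC content and length trends, the replicate block and leaving out each sample. Poisson intervals and the floor of 3 counts cover counting error only. On simulated counts for this comparison (17431 genes), the test called 100.0% of genes changed by 1 and 90.0% of genes changed by 0.5 on the log2 scale. It also called 9 unchanged genes. The changed genes were drawn only from genes above a minimum mean CPM. Spread was simulated from its trend over all genes, without the spread of single genes. These shares were therefore not measured for genes with low counts or a larger spread.

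Replicates of a group differed by more than sampling noise (chi-square per gene 4.85 to 9.59). The deviations from the group means of the samples with the same replicate number correlated at 0.106, 0.214 and 0.325 across genes, each above the limit of 0.1 used for pairing, which is a hint from the data and not from the labels. The first is barely above that limit, and DMSO replicate 1 correlated better with AZD7762 replicate 2, at 0.283. The reported fits and the exact tests of the ratios have no block, and blocked values are given beside the results whose call they change.

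The members and gene lists were chosen with earlier results of these data known. Named were the 6 members, all genes of lists of up to 3, and in longer lists the genes called or else the 2 with the smallest p and the most abundant by CPM. The other genes described from the lists (SLC2A1, SLC2A2, TXN, TXN2, NLRP3, ACLY, SCD, FASN, KLF10, ELOVL6, KHK, TKFC, PKLR, HK2, CHGA, INS, NEUROD1, SMURF1, PRSS1 and PTPRC) were chosen after their values were seen. Some list genes are not reported here.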

Additional observations from a re-analysis of the deposited data

How the results depend on the processing

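Against 125 genes called, there were 330 when all genes were fitted, 254 by the exact test and 267 by the likelihood ratio test of edgeR, 378 with the replicate block, 233 with GC and length trends removed and 486 with these and the block, and the cause was not tested. All 125 were among them in each of these but the removal of GC and length trends alone, which kept 123. With 1 sample left out the lowest count was 77 (no AZD7762 replicate 1) and the highest 168 (no DMSO replicate 3). Against 1 member called, there were 2 when all genes were fitted, by DESeq2's Wald test, by the exact test and with GC and length trends removed, 3 by the likelihood ratio test, with the replicate block and with block and removal together, and 0 to 1 with 1 sample left out. TXNIP was called in 14 of 17 alternatives, with a log2 fold change from 0.64 to 0.85, ARRDC3 in 7, from 0.24 to 0.45, and ARRDC4 in 3, from -0.33 to -0.27. The replicate block changed the call of no other member. The sign of MLXIPL (0.037) turned with GC and length trends removed (-0.041, and -0.042 with the replicate block) and without DMSO replicate 1 (-0.00542), DMSO replicate 2 (-0.011) or AZD7762 replicate 3 (-0.062), and that of MLXIP turned without DMSO replicate 1 (-0.0027), and the highest values of MLXIPL and MLXIP with 1 sample left out were 0.14 and 0.11. The log2 difference of the TXNIP to ARRDC4 ratio ranged from 0.95 to 1.16 with 1 sample left out, that of TXNIP to ARRDC3 from 0.36 to 0.44 and that of ARRDC4 to ARRDC3 from -0.75 to -0.56. The alternatives for MXD1, BHLHE40, RGS16 and MAFA and for the gene lists were added after seeing the data. Depth limits the precision of genes with few counts, such as TXNIP with 96 to 248, RGS16 with 78 to 197 and BHLHE40 with 62 to 254 counts per sample.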
